A study of Homo sapiens with 18 samples.

Results

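The comparison set the parental cells of OCI-AML3 against the parental cells of OCI-AML2, both human acute myeloid leukaemia lines grown in suspension. Its members were the 3 RNA sequencing libraries of each parental line, 6 of the 18 libraries of the series, chosen by their labels. OCI-AML3 parental cells carry the labelled genotype NPM1c+ with caspase-2 intact, and OCI-AML2 parental cells carry NPM1WT with caspase-2 intact. Both were untreated and kept in the same serum-containing RPMI medium for under 2 weeks. The other 12 libraries came from 2 clones per line in which CASP2 had been targeted with CRISPR/Cas9, and they serve here as a second set of libraries of the same lines. Each line stands for 1 patient's leukaemia, so the NPM1 genotype and every other difference between the lines cannot be told apart. Nothing in the labels says that the 3 libraries of a line came from separate cultures, so p-values measure the spread between these libraries, which may be technical.

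NPM1 encodes nucleophosmin, a nucleolar chaperone, and the leukaemia mutation written NPM1c+ moves the protein to the cytoplasm. Myeloid leukaemias of this class are known for sustained expression of HOXA and HOXB genes with their cofactors MEIS and PBX, which in normal blood formation are switched off as progenitors mature. Both lines are used as models of monocyte- and granulocyte-like leukaemia, so genes of granules, phagocytosis, adhesion and inflammation form the rest of the lists described here.

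The deposited values are TPM, a transcript abundance that is scaled for gene length and depth. The table is a selection of genes with changes in this series, in which many values stand under a wrong symbol and many are repeated. Each distinct set of 18 values was counted once, giving 5069 sets, of which 3289 (64.9%) could be tied to a symbol. For 559 of them the symbol was accepted because the line appeared once and its parental difference was small (a log2 ratio under 0.6), and 229 were named by position between settled lines, among lines that include ones picked for a ratio of 0.95 or more. These 2 rules use the comparison reported here, so list counts below depend on them. Counts without their symbols are given for some lists only, and list medians that changed sign without them are given near the end. The test covered 3960 sets, those that reached 1 TPM in 3 or more of the 6 parental libraries, and 2568 of them had a settled symbol. The sets summed to between 170140 and 177745 TPM per parental library, and the read depth is unknown. Correlations of log2(TPM + 1) over the tested sets were 0.995 to 0.997 between libraries of 1 line and 0.548 to 0.562 between lines, as a description of a table chosen for differences. Of the cell type markers, PRTN3, AZU1 and CTSG of promyelocytes had means of 1110 TPM or more in both lines. CD68 and FCGR1A of monocytes had means of at least 91.5 TPM, CD14 stood at 6.44 TPM in OCI-AML2 and 0.813 TPM in OCI-AML3, and CD3D of T cells was listed at 0 in all 6 libraries. The stem cell markers, MPO and ELANE had no settled symbol and are not analysed here.

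Differences below are OCI-AML3 minus OCI-AML2 on the log2(TPM + 1) scale, which understates low genes, with the SE and the adjusted p-value of limma. Of the 3960 tested sets, 3737 (94.4%) passed an adjusted p of 0.05, and the libraries of the lines did not overlap in 3726 sets. In OCI-AML3, 1970 sets (49.7%) were higher and 1767 (44.6%) were lower. With a difference of at least 1 in addition, 2636 sets (66.6%) remained, 1495 (37.8%) higher and 1141 (28.8%) lower. The median difference of all tested sets was 0.20, and rescaling the libraries by medians of ratios lowered it by 0.13, so small differences depend on the scaling. Because nearly every set passed, a count of members is read here against these shares and not against 0.

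**Figure D1:**
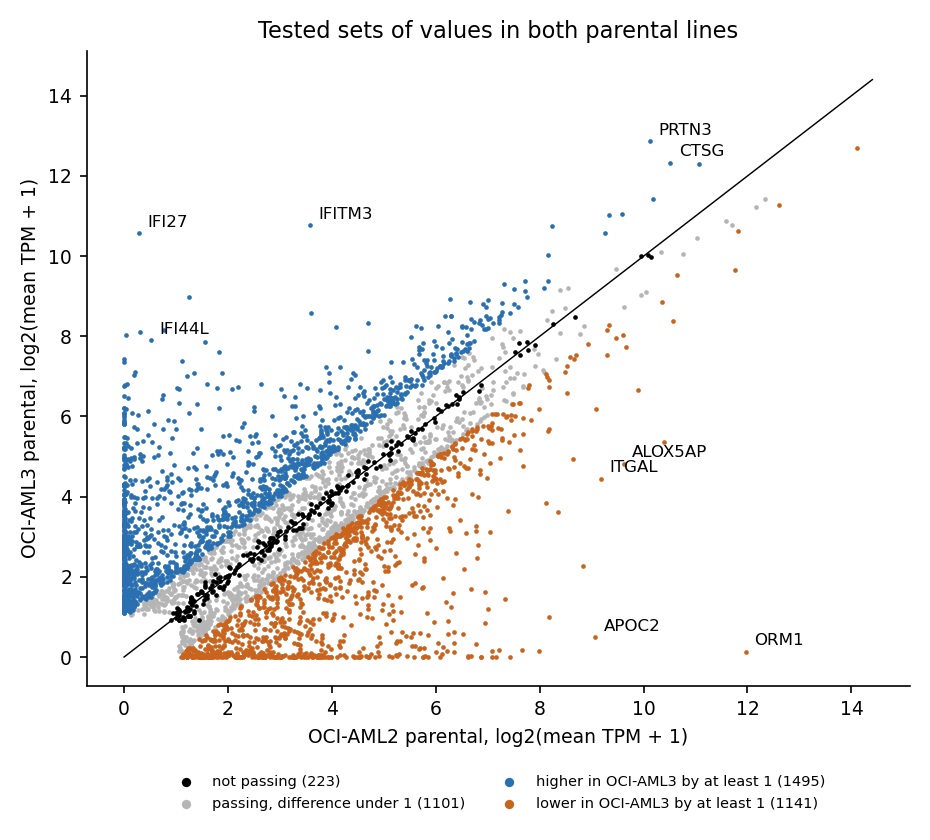
Mean level of each of the 3960 tested sets in OCI-AML2 parental cells (x axis) and OCI-AML3 parental cells (y axis), both as log2(mean TPM + 1), with the line of equal levels. Colours separate the 1495 sets higher and the 1141 sets lower in OCI-AML3 by at least 1 from the rest, and 223 sets in black did not pass the test.

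The tested interferon-stimulated genes stood higher in OCI-AML3. Type I interferon binds its receptor and, through transcription factors, switches on antiviral effectors that block viral entry, sense foreign RNA or degrade it. The 24 tested members of a list of 51 genes were higher in OCI-AML3, each by at least 1, beside 37.8% of all tested sets, and their median difference was 3.43 beside 0.20. Only 12 of the 24 reached 1 TPM in both lines. The others passed the minimum through OCI-AML3, where they are high, so they had to differ and their count is a description. Without the 5 symbols settled by position, 19 of 19 were higher. A further 2 settled members were below the minimum, and one of them ran the other way: GBP1, an interferon-induced GTPase, was listed at 0.68, 0.85 and 1.04 TPM in OCI-AML2 and at 0.11, 0.07 and 0 TPM in OCI-AML3. Since these are bulk libraries, a higher level in every cell and a higher level in part of the cells cannot be told apart, here and in the lists below.

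IFI27, a small mitochondrial membrane protein and one of the most sensitive interferon targets, was listed at 0, 0.45 and 0.20 TPM in the OCI-AML2 libraries and at 1411, 1596 and 1567 TPM in those of OCI-AML3. It was among the 8 most abundant named genes of OCI-AML3 and near 0 in OCI-AML2, and IFI27 had a difference of 10.31 (SE 0.13, adjusted p = 1.7e-11). IFITM3, which blocks entry of viruses at the endosome, stood at 13.2, 10.1 and 9.63 TPM against 1876, 1740 and 1624 TPM. IFI44L, an antiviral protein of unsettled mechanism, stood at 0.48, 0.29 and 0.53 TPM against 235, 247 and 235 TPM. The libraries of the lines did not overlap in any of these genes, as in 3726 of the 3960 tested sets. The differences of IFITM3 and IFI44L were 7.20 (SE 0.11) and 7.39 (SE 0.08).

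IFI27, IFI44L and IFITM3 had the largest differences of the interferon list, and their promoters are printed here. The sequences are the 250 bases before the first listed start of each gene, from RefSeq (GRCh38.p14), 5′ to 3′ on the gene's strand, and capitals mark matches of the interferon response core, searched on both strands as GAAA, any 2 bases and GAAA again, or as the reverse complement TTTC, any 2 bases and TTTC, with overlaps allowed. IFI27 lies at chr14:94110486-94110735 on the plus strand, IFI44L at chr1:78620198-78620447 on the plus strand and IFITM3 at chr11:320861-321110 on the minus strand.
IFI27: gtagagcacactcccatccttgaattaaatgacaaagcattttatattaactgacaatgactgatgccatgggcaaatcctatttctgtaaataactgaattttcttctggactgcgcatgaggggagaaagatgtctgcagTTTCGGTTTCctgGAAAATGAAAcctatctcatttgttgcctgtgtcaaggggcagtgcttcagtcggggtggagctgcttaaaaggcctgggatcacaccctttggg
IFI44L: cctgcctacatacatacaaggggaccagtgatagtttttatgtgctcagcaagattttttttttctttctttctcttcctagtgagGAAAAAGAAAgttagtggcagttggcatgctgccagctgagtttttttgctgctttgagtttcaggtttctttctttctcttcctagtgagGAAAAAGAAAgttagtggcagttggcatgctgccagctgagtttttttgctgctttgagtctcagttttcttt
IFITM3: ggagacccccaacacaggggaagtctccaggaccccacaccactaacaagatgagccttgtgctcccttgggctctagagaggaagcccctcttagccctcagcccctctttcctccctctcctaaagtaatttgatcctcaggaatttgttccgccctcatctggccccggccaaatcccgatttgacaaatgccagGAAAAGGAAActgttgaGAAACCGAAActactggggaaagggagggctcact

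Each of the 3 windows held 2 matches. Of the 24 tested interferon-stimulated genes, 21 had a promoter entry and 16 of them (76.2%) held at least 1 match in a listed window (250 bases before the start), beside 3.71% of the 27305 genes with an entry. The share was 6% among named genes higher in OCI-AML3 by at least 1 and 5.6% among those lower by at least 1. A match describes letters only, and not a bound site. OAS1, DDX58, CMPK2, GBP4 and EIF2AK2 held no match in these windows, which says only that these letters are absent there.

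Of the sensors of foreign RNA, DDX58, which encodes RIG-I, had means of 4.72 and 11.8 TPM in OCI-AML2 and OCI-AML3 (difference 1.16), and EIF2AK2, the kinase that halts translation, 7.01 and 38.2 TPM (difference 2.30). The OAS enzymes, which make the second messenger that activates RNase L, differed by 6.29 for OAS2, 5.09 for OAS3, 4.54 for OAS1 and 1.77 for the related OASL. OAS2 reached a mean of 230 TPM in OCI-AML3, from 1.96 TPM. MX1, a GTPase that traps viral nucleocapsids, stood at 1.87, 2.12 and 2.07 TPM against 110, 105 and 116 TPM. ISG15, the ubiquitin-like modifier, rose from a mean of 13.8 to 149 TPM, and BST2, which tethers budding virions, from 180 to 584 TPM. The smallest levels in OCI-AML3 within the list were those of IFIT1 at 1.73 TPM, GBP4 at 2.54 TPM and OASL at 3.89 TPM, beside the 1525 TPM of IFI27. SIGLEC1, a sialic acid receptor of macrophages that interferon also induces and that stands in another list, was listed at 0.08, 0.02 and 0.02 TPM against 44.6, 45.1 and 40.2 TPM.

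**Figure D2:**
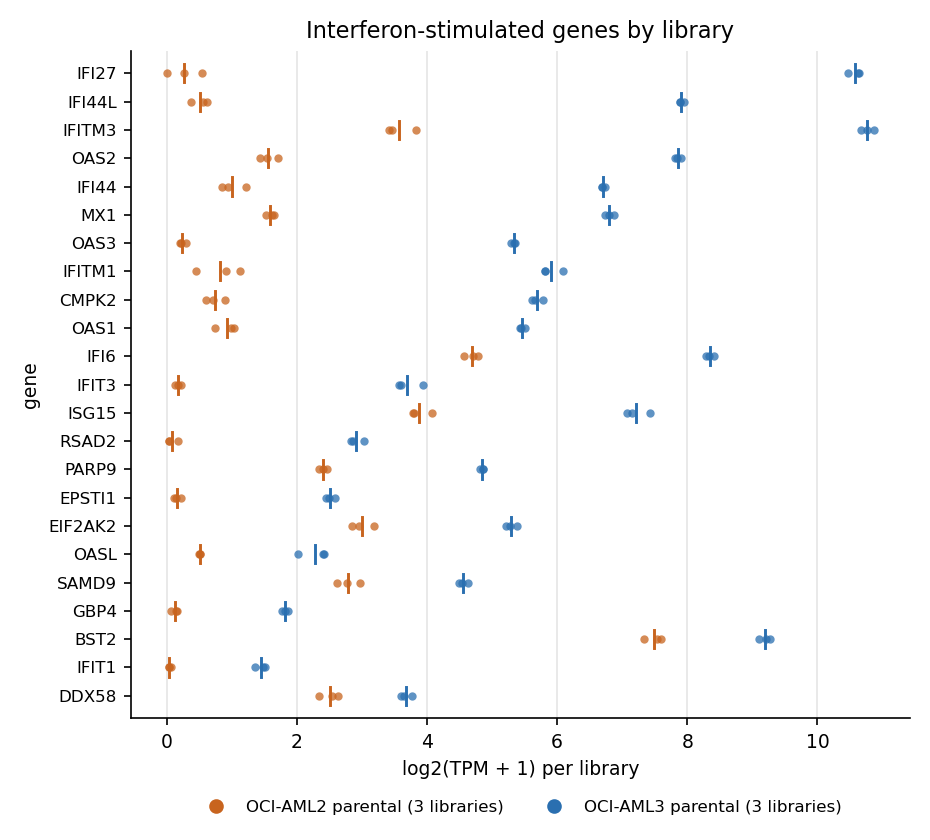
Of the 24 tested interferon-stimulated genes, 23 (y axis) with the level in each of the 3 OCI-AML2 and 3 OCI-AML3 parental libraries as log2(TPM + 1) (x axis), and the mean as a bar. In all 23 genes drawn the OCI-AML3 libraries lie to the right of the OCI-AML2 libraries.

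The HOX genes split by cluster. HOX proteins set positional identity in the embryo, and in leukaemia the A and B clusters maintain self-renewal with PBX and MEIS partners. Of 13 tested members of a list of 45 genes, 7 were higher and 6 were lower in OCI-AML3, with a median of 0.47. Only 4 of the 13 reached 1 TPM in both lines, and without the symbols settled by size or position 4 were higher and 6 lower, with a median of -1.06. HOXB9 was listed at 0 in the 3 OCI-AML2 libraries and at 69.5, 56.6 and 59.7 TPM in OCI-AML3, HOXB4 at 0 and at 61.5, 53.7 and 50.1 TPM, and HOXB7 at 0 and at 12.1, 10.2 and 9.16 TPM. HOXB8 was listed at 0 and at 4.88, 5.27 and 5.53 TPM. All 4 tested HOXB genes of the list were therefore listed at 0 in OCI-AML2. They passed the minimum through OCI-AML3 alone, so they had to differ and their count is a description. Their libraries did not overlap between the lines, as in 3726 of the 3960 tested sets.

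In the A cluster the direction turned. HOXA5 stood at 17.8, 16.5 and 17.6 TPM in OCI-AML2 and at 1.94, 2.28 and 1.25 TPM in OCI-AML3, a difference of -2.72 (SE 0.13, adjusted p = 3.7e-08). HOXA7 stood at 12.3, 13.6 and 14.7 TPM against 2.38, 2.82 and 3.25 TPM, a difference of -1.93 (SE 0.11). HOXA3 and HOXA4 lay near 2 TPM in OCI-AML2 and below 0.6 TPM in OCI-AML3, with differences of -1.03 and -1.08. HOXA9, the A-cluster gene most tied to leukaemia, had its symbol accepted only because its parental difference was small, so the size of that difference is no finding. It stood at 61.2, 53.1 and 62.6 TPM against 76.5, 93.9 and 77.1 TPM, a difference of 0.47 (SE 0.10, adjusted p = 0.0013). HOXA9 had the highest level of the tested HOX genes in both lines. Among cofactors, PBX3 was lower in OCI-AML3 (means 85 and 23.2 TPM, difference -1.83), while PBX4 and MEIS3 were higher, from 0.513 to 3.44 TPM and from 0.357 to 8.79 TPM.

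**Figure D3:**
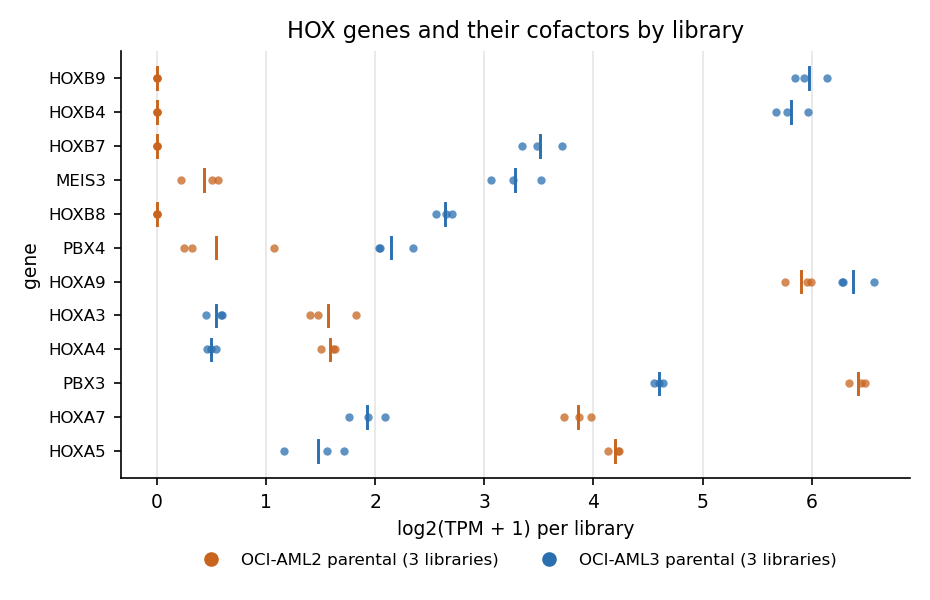
Of the 13 tested HOX genes and cofactors, 12 (y axis) with the level in each parental library as log2(TPM + 1) (x axis) and the mean as a bar. HOXB4, HOXB7, HOXB8 and HOXB9 lie at 0 in the OCI-AML2 libraries, while HOXA3, HOXA4, HOXA5 and HOXA7 lie lower in OCI-AML3.

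Genes of the neutrophil and phagocyte maturation list were mostly lower in OCI-AML3. Of 13 tested members, 10 were lower by at least 1, beside 28.8% of all tested sets, 2 were higher and 1 did not pass, and the median was -2.13. Only 4 of the 13 reached 1 TPM in both lines. Most of the lower members passed the minimum through OCI-AML2 alone, and their count is a description. ORM1, the secreted acute-phase glycoprotein orosomucoid, had the largest difference of any named gene: 3897, 4363 and 3809 TPM in OCI-AML2 against 0, 0 and 0.30 TPM in OCI-AML3, a difference of -11.85 (SE 0.11, adjusted p = 7.8e-12). S100A9 and S100A8 form calprotectin, the calcium-binding complex that fills the neutrophil cytosol. S100A9 stood at 72.8, 87.3 and 77.8 TPM against 3.01, 1.94 and 1.19 TPM, and S100A8 at 12.6, 17.8 and 15.5 TPM against 0.79, 1.38 and 0.69 TPM.

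The phagocyte oxidase, which makes superoxide, was split between its subunits. CYBB, its membrane-bound catalytic subunit, stood at 34.1, 39.2 and 36.0 TPM against 0.34, 0.26 and 0.23 TPM. NCF1, a cytosolic activator, was higher in OCI-AML3 with means of 13.6 and 37.9 TPM, but it has near-identical pseudogene copies that can share reads, so its value is uncertain. MMP9, a gelatinase of neutrophil granules, was listed near 0 in OCI-AML2 (mean 0.0633 TPM) and at a mean of 4.79 TPM in OCI-AML3. TCN1, BPI, CEACAM6, CXCR2 and the Fc receptor FCAR were each lower. CHI3L1, a chitinase-like glycoprotein, did not pass in either direction, with means of 9.76 and 8.29 TPM. Its difference was -0.22 (SE 0.10, adjusted p = 0.061), and it passed as lower after rescaling. The symbol of CHI3L1 was accepted only because its parental difference was small, so neither that size nor the missing call is a finding.

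The list of primary granule genes of promyelocytes showed no common direction: of 10 tested members 4 were higher, 5 lower and 1 did not pass. PRTN3, proteinase 3, stood at 1212, 1022 and 1096 TPM against 8465, 7021 and 6957 TPM, and was the most abundant named gene of OCI-AML3. CTSG, cathepsin G, stood at 1468, 1526 and 1397 TPM against 5143, 5103 and 5231 TPM. These serine proteases were high in both lines and higher in OCI-AML3 by 2.75 (SE 0.10) and 1.82 (SE 0.07). Azurocidin, AZU1, went the other way with means of 2079 and 1403 TPM (difference -0.57), as did the related protease PRSS57 with 62.8 and 5.57 TPM (difference -3.29). The symbol of AZU1 was accepted only because its parental difference was small, so the size of that difference is no finding. NKG7, which also counts in the lymphoid list, and HGF were lower too, by -2.01 and -2.42. The other 2 higher calls, MS4A3 (0.23, adjusted p = 0.040) and CST7 (0.32, adjusted p = 0.0044), were lost when libraries were rescaled, and that of MS4A3 also without any of 5 of the 6 libraries.

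Monocyte and macrophage genes were mixed, with 9 of 21 tested members higher, 10 lower and 2 not passing (median -0.13). The lectin receptor CLEC12A stood at 72.7, 75 and 73.9 TPM against 0.98, 0.76 and 0.82 TPM, a difference of -5.34, and the chemokine receptor CCR2 had means of 28.2 and 0.207 TPM. TLR4 and the iron transporter SLC11A1 were lower too, with differences of -2.26 and -1.85. On the higher side, besides SIGLEC1, were the lipid-sensing receptor TREM2 (means 0.107 and 7.12 TPM), the Fc receptor FCGR2A (22.2 and 105 TPM) and the cytokine gene IL1B (30.7 and 92.9 TPM). CD68 passed with 0.22 (adjusted p = 0.034) but not after rescaling, with all 18 libraries, or without replicate 1 or 3 of OCI-AML2 or replicate 1 of OCI-AML3.

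Of the antigen presentation genes, the class II list had calls in both directions. Class II molecules show peptides to helper T cells, with CD74 as their invariant chain. CD74 stood at 868, 798 and 773 TPM against 232, 214 and 191 TPM, and HLA-DRA at 5.09, 5.30 and 5.29 TPM against 0.09, 0.19 and 0 TPM. In this list of 6 tested members 4 were lower, beside 44.6% of all tested sets, and 2 higher. Only 3 of the 6 reached 1 TPM in both lines. HLA-DOB, among the lower ones (-0.33), had its symbol accepted only because its parental difference was small. Its adjusted p reached 0.073 over the alternative settings. Without HLA-DOB 3 were lower and 2 higher. The higher ones were HLA-DMA (0.92) and the thiol reductase IFI30 (2.02), which interferon also induces. Of 3 tested class I members 2 were lower and 1 did not pass, and NLRC5, the transactivator of class I genes, had means of 38.8 and 16.1 TPM. The peptide transporter TAP1 did not pass (difference 0.08, adjusted p = 0.32). Its symbol was accepted only because that difference was small, so the missing call is no finding. Reads of HLA genes can be split among alleles and paralogs, and the HLA values carry that uncertainty.

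**Figure D4:**
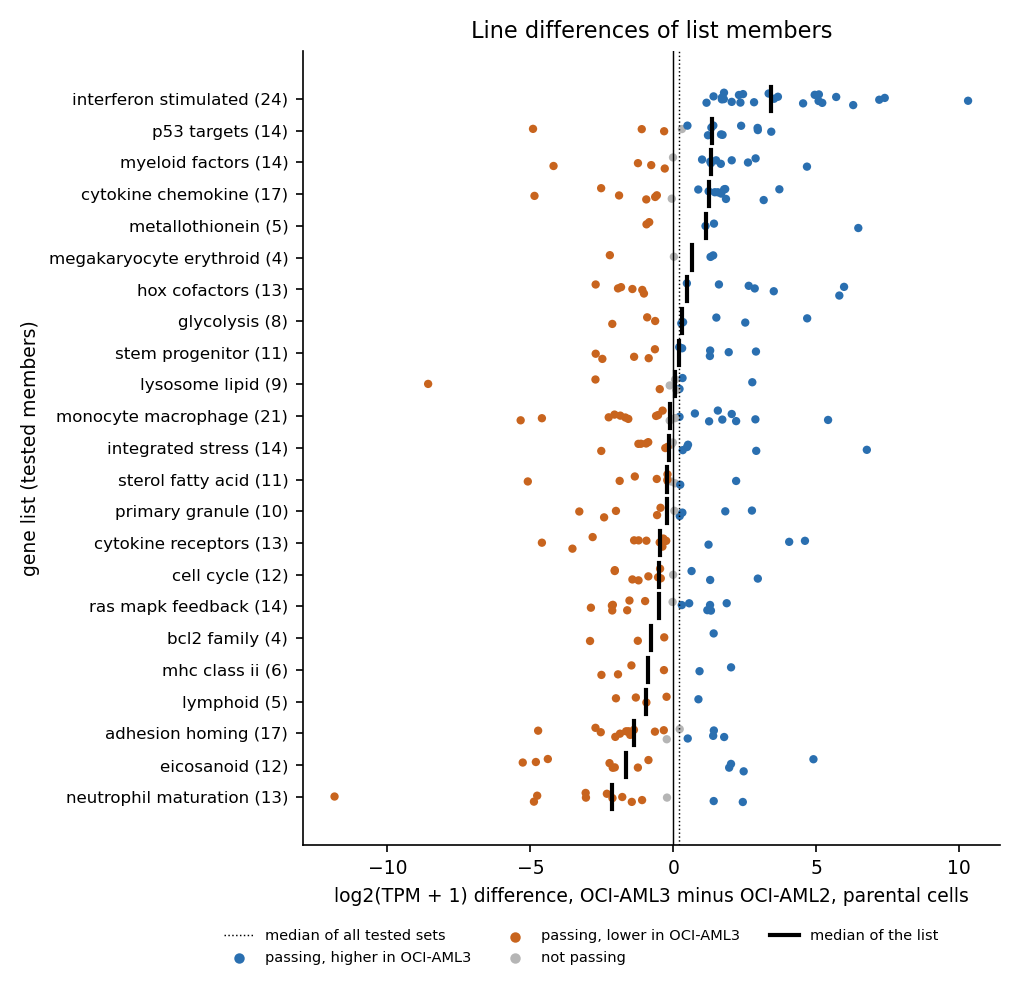
Line difference (x axis, log2(TPM + 1), OCI-AML3 minus OCI-AML2) of each tested member of the lists with at least 4 tested members (y axis), with the list median as a black bar and the median of all tested sets as a dotted line. Interferon-stimulated genes have the highest median, 3.43, and neutrophil maturation genes the lowest, -2.13.

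Adhesion and homing molecules were more often lower. Of 17 tested, 11 were lower, beside 44.6% of all tested sets, 4 were higher and 2 did not pass, with a median of -1.38. ITGAL, the alpha chain of the leukocyte integrin LFA-1, stood at 549, 577 and 608 TPM against 21.1, 20.6 and 20.9 TPM, a difference of -4.73 (SE 0.06). Its beta chain ITGB2 was slightly higher, with means of 197 and 280 TPM. CXCR4, the receptor that holds blood progenitors in the marrow, stood at 280, 288 and 290 TPM against 50.5, 45.4 and 49.5 TPM. SELPLG, the ligand of selectins, and the integrin ligands ICAM2 and ICAM4 were lower by -1.86, -1.57 and -2.72, and the tetraspanin CD151 was higher by 1.42.

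Among cytokine receptors 10 of 13 tested were lower, beside 44.6% of all tested sets, and 3 higher (median -0.48). Only 5 of the 10 were lower by at least 1, and 7 of the 13 reached 1 TPM in both lines. The receptor of GM-CSF, a growth factor of myeloid cells, was lower in both chains: CSF2RA stood at 32, 33.1 and 32.8 TPM against 2.47, 1.68 and 1.67 TPM, and CSF2RB had means of 38.5 and 19.6 TPM. IL3RA and IL2RG were lower by -1.37 and -2.82. The 3 higher genes were OSMR, LIFR and TNFRSF14. OSMR and LIFR, listed at 0 in all OCI-AML2 libraries, pair with gp130 to bind oncostatin M and LIF, and the genes of those ligands, OSM and LIF, were higher as well (means 2.00 and 9.54 TPM, and 0.10 and 2.94 TPM).

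Of 17 tested cytokine and chemokine genes 10 were higher and 6 lower (median 1.24), a share of higher calls near the 49.7% of all tested sets. CCL2, which attracts monocytes, stood at 0.48, 0.50 and 0.68 TPM against 16.3, 10.5 and 12.4 TPM. TNF stood at 32.5, 32.3 and 32.2 TPM against 78.6, 78.7 and 75.2 TPM, and IL1RN, the interleukin-1 receptor antagonist, and the chemokine gene CCL5 were higher by 1.45 and 0.87. IL32 went the other way, from 39.1, 35.1 and 37.1 TPM to 0.55, 0.29 and 0.14 TPM, as did the B-cell factor TNFSF13B with means of 47.0 and 7.36 TPM. Eicosanoid genes make and sense lipid mediators from arachidonic acid. Of 12 tested 8 were lower, beside 44.6% of all tested sets (median -1.64). Only 4 of the 12 reached 1 TPM in both lines. Genes that passed the minimum through 1 line alone had to differ, so the count is a description. Without the 3 symbols settled by position, 7 of 9 were lower. ALOX5AP, which presents arachidonate to 5-lipoxygenase, stood at 805, 824 and 733 TPM against 29.8, 23.5 and 28.6 TPM. TBXAS1, thromboxane synthase, stood at 40.6, 49.9 and 45.6 TPM against 0.27, 0.15 and 0.19 TPM. The leukotriene arm was not uniform, since ALOX5 itself was higher (0.09 and 3.47 TPM) and LTC4S, leukotriene C4 synthase, stood at 2.22, 1.35 and 1.37 TPM against 71.7, 100 and 63.7 TPM.

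Transcription factors of myeloid cells included 9 of 14 tested that were higher, beside 49.7% of all tested sets, and 4 lower (median 1.30). The immediate-early factors EGR3 (0.0533 and 25.9 TPM), FOSB (1.69 and 18.8 TPM) and NR4A1 (6.54 and 45.3 TPM) were higher by 4.67, 2.88 and 2.61, while FOS, of the same class, was lower by a difference of -0.30 (adjusted p = 0.0088). IRF8, which directs monocyte and dendritic cell fate, stood at 213, 209 and 205 TPM against 630, 725 and 639 TPM. WT1, a zinc finger factor overexpressed in many leukaemias, stood at 18.1, 17.0 and 18.4 TPM against 0, 0.05 and 0.05 TPM. Among RAS and MAP kinase feedback genes 6 of 14 were higher and 7 lower, and the ERK phosphatase DUSP6 had means of 31.4 and 3.44 TPM (difference -2.88), while the inhibitor SPRY4 was higher by 1.87.

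Of 11 tested stem and progenitor genes 6 were higher and 5 lower, and without the symbols settled by size or position 3 were higher and 5 lower, which turns the median from 0.21 to -0.75. ERG, a factor of blood stem cells, was listed at 0 in OCI-AML2 and at 7, 6.15 and 6.12 TPM in OCI-AML3. LIN28B, a fetal blocker of let-7 processing, was the reverse, at 5.41, 5.81 and 5.47 TPM and at 0. BMI1, a Polycomb protein of self-renewal, had means of 32.3 and 17.5 TPM (difference -0.86), and SOCS2 differed by -2.48. TERT, at 0.31 (adjusted p = 0.021), lost its call after rescaling or without replicate 2 of OCI-AML2 or replicate 1 or 2 of OCI-AML3. LMO2, at 0.21 (adjusted p = 0.032), lost its call after rescaling or without replicate 1 or 3 of OCI-AML2 or replicate 2 or 3 of OCI-AML3. The symbols of TERT and LMO2 were accepted only because their parental differences were small, so those sizes are no finding.

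The p53 target genes were more often higher. The protein p53 answers DNA damage with cell cycle arrest, repair and death genes. Of 14 tested targets 10 were higher, beside 49.7% of all tested sets, 3 were lower and 1 did not pass (median 1.37). CDKN1A, which encodes the cyclin-dependent kinase inhibitor p21, stood at 8.44, 8.86 and 9.21 TPM against 86.1, 69.7 and 71.0 TPM, a difference of 2.96 (SE 0.09). PHLDA3, an inhibitor of AKT, stood at 0.42, 0.52 and 0.40 TPM against 14.2, 15.3 and 14.1 TPM, and EDA2R at means of 0.197 and 8.19 TPM. The death receptor TNFRSF10B and the repair gene DDB2 were higher by 1.4 and 1.33. The death receptor TNFRSF10A was among the 3 lower ones, with a difference of -1.23 after rescaling. CMBL, a hydrolase, was lower as well, with 39.2, 42.3 and 44.2 TPM against 0.44, 0.50 and 0.35 TPM.

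Of the cell cycle genes, which include CDKN1A, 8 of 12 tested were lower, beside 44.6% of all tested sets, and 3 higher. MKI67, a marker of dividing cells, stood at 40.4, 43.3 and 37.6 TPM against 16, 12.4 and 14.8 TPM, and CCNE2 and E2F2 were each lower by -2.05. CDK1 and PLK1 were lower by less than 1 (-0.87 and -0.53). CDK6, the kinase of G1 entry in blood cells, was higher, with means of 36.0 and 89.3 TPM. In the BCL2 family and caspases, CASP2 stood at 35.3, 37.3 and 35.6 TPM against 30.1, 28.1 and 28.0 TPM, a difference of -0.32 (SE 0.06, adjusted p = 0.0011), so the gene targeted in the clones differed little between parental lines. The other 3 tested members were BAK1, a pore-forming death protein, higher by 1.41, and BMF and BCL2A1, lower by -2.91 and -1.24.

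In metabolism, sterol and fatty acid genes were lower in 7 of 11 tested, beside 44.6% of all tested sets (median -0.20). The symbols of 5 of the 11 were accepted only because their parental difference was small, so small differences were built in. Without the symbols settled by size or position, 4 of 5 were lower (median -0.58). ELOVL6, which lengthens fatty acids, stood at 31.4, 34.2 and 34.6 TPM against 0, 0 and 0.03 TPM, and SQLE, an oxidation step of cholesterol synthesis, at means of 164 and 63.7 TPM. The calls of DHCR7, FADS2 and ABCA1 in that list were each lost without any 1 of at least 4 of the 6 libraries, and that of INSIG1 without replicate 3 of OCI-AML2. Of the genes of the integrated stress and unfolded protein responses, 5 of 14 were higher and 7 lower. CBS, the enzyme that condenses homocysteine with serine, stood at 0, 0 and 0.04 TPM against 112, 120 and 97.7 TPM, while CTH, the next enzyme of that path, differed by -0.28. Glycolysis genes were higher in 5 of 8, beside 49.7% of all tested sets. The higher ones included the muscle phosphofructokinase PFKM with 0.92, 0.86 and 1.22 TPM against 45.5, 57.9 and 47.8 TPM. Only 3 of those 5 were higher by at least 1. The call of PFKP (0.28) was lost after rescaling, and that of SLC2A5 (0.34) after rescaling or without replicate 1 or 2 of OCI-AML2 or replicate 3 of OCI-AML3. Of 5 tested metallothionein and zinc genes 3 were higher. MT1A, a metal-binding protein, was listed at 0 in OCI-AML2 and at 95.9, 109 and 64.4 TPM in OCI-AML3, whereas MT2A had means of 116 and 59.8 TPM. The lipid and lysosome list had 3 of 9 higher and 3 lower, led by the apolipoprotein APOC2 at 628, 499 and 483 TPM against 0.17, 0.54 and 0.53 TPM.

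The remaining lists were small. Lymphoid genes were lower in 4 of 5 tested, beside 44.6% of all tested sets, but only 2 were lower by at least 1. The lower call of CD37 (-0.24, adjusted p = 0.032) was lost in at least 1 alternative, with an adjusted p of up to 0.12. Megakaryocyte and erythroid genes were higher in 2 of 4, near the 49.7% of all tested sets. They were lower in 1, NFE2, a factor of platelet formation, at -2.22. Of 2 tested cancer-testis genes PRAME was higher by 0.41 and TEX15 lower by -2.26, and the only tested nucleolar list member, NPM2, had means of 1.54 and 0.343 TPM. Over all 26 lists, 263 genes were tested, each counted once, of which 119 were higher, 126 lower and 18 did not pass.

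Besides the genes of these lists, the largest differences among named genes with at least 10 TPM in the higher line included pairs of related genes. BEX1 and BEX3, small X-linked adaptor proteins, stood at means of 0.697 and 285 TPM, and 0 and 162 TPM. RHOXF2 and RHOXF2B, X-linked homeobox genes of the germ line, were listed at 171 and 116 TPM in OCI-AML2 and at 0 in OCI-AML3, but they are near-identical copies and their split is uncertain. NPDC1 (285, 262 and 238 TPM), the autophagy gene MAP1LC3A (267, 291 and 272 TPM), the creatine enzyme GAMT (129, 158 and 125 TPM), the metalloproteinase inhibitor TIMP3 (107, 108 and 107 TPM) and the kinase MATK (111, 122 and 102 TPM) were at or below 0.5 TPM in every OCI-AML2 library. In the other direction, the defensin DEFB1 stood at 212, 267 and 277 TPM, PDLIM1 at 205, 201 and 194 TPM and the lymphocyte activation marker CD69 at 62.0, 68.9 and 68.0 TPM, each at or below 0.4 TPM in OCI-AML3. SNURF, VAT1L, HAPLN4 and KIF17 complete the lower side, with differences of -6.61, -6.56, -6.25 and -6.07.

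Genes listed at 0 in all libraries of 1 line and at a mean of at least 10 TPM in the other numbered 41 for OCI-AML2 and 16 for OCI-AML3 among settled symbols. The 41 that OCI-AML3 had included transcription factors of development, TWIST1 (24.7 TPM), LHX2 (56.3 TPM), NKX6-1 (21.9 TPM), EGR4 (18.3 TPM) and SOX18 (10.8 TPM), the RNA-binding protein IGF2BP1 (14.5 TPM) and the linker histone H1F0 (56.5 TPM). They also included PSEN2 (35.9 TPM) and ECI2 (36.1 TPM), genes used by most cells, so these values are given as listed only. The 16 that OCI-AML2 had included the lectin CLEC9A (21.7 TPM), the lipid receptor S1PR4 (24.8 TPM), the membrane repair protein DYSF (10.3 TPM) and the B-cell regulator GAPT (18.4 TPM). The most abundant named genes were PABPC1, the poly(A)-binding protein, in OCI-AML2 (6343, 6402 and 6000 TPM against 2507, 2355 and 2523 TPM) and PRTN3 in OCI-AML3. ASS1, CD37 and PPP1R27 were among the 8 most abundant in OCI-AML2, CA2, ATP5MF and PPP1R27 in OCI-AML3.

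The 12 clone libraries, which share no sample with the parental ones, gave the same contrast a second time. In them CASP2 stood at 3.00 to 5.06 TPM in the OCI-AML2 clones and at 26.3 to 35.4 TPM in the libraries labelled as OCI-AML3 clones, so its mRNA does not check the label in OCI-AML3, and the line cannot be told apart there from the targeting and from each clone's own history. A set was called only where all 4 pairs of an OCI-AML3 with an OCI-AML2 clone passed in 1 direction with limma, which held for 3155 sets (79.7%), of which 1563 (39.5%) were higher and 1592 (40.2%) lower. Of the 1495 sets higher by at least 1 between parental lines, 1141 (76.3%) were called in the same direction in the clones, 48 (3.21%) in the opposite direction and 306 (20.5%) not at all. Of the 1141 sets lower by at least 1, the same held for 933 (81.8%), 35 (3.07%) and 173 (15.2%). The table was selected in part for changes in the clones, so these shares describe the table.

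By list, 22 of the 24 interferon-stimulated genes were also called higher in the OCI-AML3 clones and none lower. The 2 without a call were RSAD2, an antiviral radical enzyme, and SAMD9, whose mean clone difference was -0.65. The mean clone difference of IFI27 was 4.01 beside 10.31 in parental cells, and that of IFITM3 5.85 beside 7.20. All 10 lower neutrophil maturation genes, all 6 lower HOX genes and cofactors and 6 of the 7 higher ones had the same call in the clones, HOXA9 being the one without a call. Of the 10 higher p53 targets 8 had the same call, EDA2R and DDB2 being without one. PRTN3 and CTSG were not called in the clones (mean differences 0.71 and -0.24), nor were MT1A (0.53) and ALOX5AP (0.34), so these parental differences were not seen in all clone pairs.

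**Figure D5:**
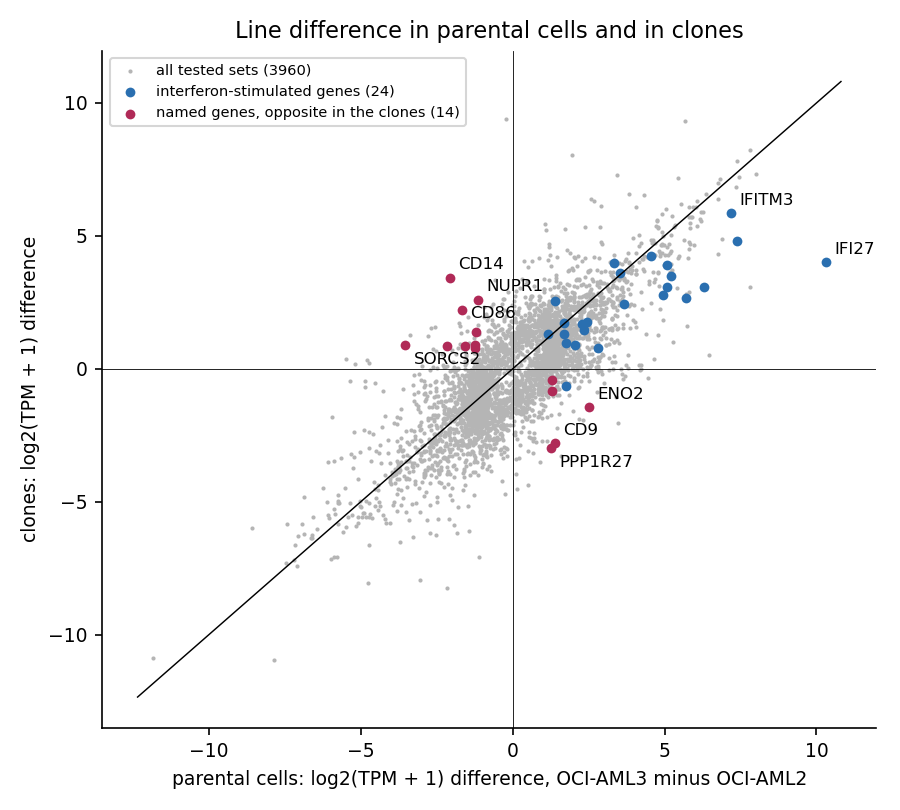
Line difference of each of the 3960 tested sets in parental cells (x axis) and as the mean over the clones (y axis), both as log2(TPM + 1), OCI-AML3 minus OCI-AML2, with the line of equal differences. The 24 interferon-stimulated genes in blue lie to the right of 0, and 14 named genes in red lie on opposite sides of 0 in the 2 comparisons.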

How the data were processed

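Libraries were grouped by the labels' titles. TPM were deposited by the authors as 1 table, per the file headers, with an aligner, annotation and genome build not given in the sources used here. All value columns matched a sample. The table lists 6999 lines with 4816 symbols, stacked from several lists, and in one of them the symbol column is shifted against the values. Symbols were settled from repeats, from the replicate order of twin lines from the order of identifiers, from position between settled lines and, for 559 lines seen once, from a parental log2 ratio under 0.6, and the positional rule named 200 of 203 left-out lines correctly. Sets without a settled symbol were tested but are not named. Genes were matched to RefSeq tables (GRCh38.p14).

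Log2(TPM + 1) was fitted with limma 3.58.1 in R 4.3.3 on the 6 parental libraries with an intensity trend, two-sided, with Benjamini-Hochberg adjustment over all 3960 sets. The fit was tested on simulated data. With 3 libraries against 3 no exact permutation test can go below 0.1, so none was used. Named are the 12 largest differences in each direction, up to 8 leading members of a list and others a count needs, the 8 most abundant genes of each line, genes listed at 0 in 1 line, and CASP2. The members and lists were chosen with earlier results of these data known. Some genes that this rule names are not reported here.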

Additional observations from a re-analysis of the deposited data

Results flagged for a closer look

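Of 331 named genes, 14 differed by at least 1 between the parental lines and had the opposite difference in the clones, where the 6 libraries of one line did not overlap the 6 of the other. The 331 include genes that differed by less than 1. Of all tested sets, the opposite call in the clones held for 3.21% of those higher by at least 1 and 3.07% of those lower by at least 1. The count of 14 is therefore a description. Whether the parental and clone differences differ from each other was not tested, and the table was selected in part for such changes. Of the 14 genes, 3 are genes of monocytes and macrophages. CD14, the endotoxin co-receptor, differed by -2.06 between parental lines and by 3.43 between clones, with 40.7 to 52.6 TPM in OCI-AML3 clones and 2.79 to 3.70 TPM in OCI-AML2 clones. CD86, the T-cell costimulator, differed by -1.68 and 2.22, and the lectin gene LGALS3 by -1.57 and 0.85.

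PPP1R27, a phosphatase regulator, differed by 1.25 between parental lines and -2.99 between clones, and was among the most abundant named genes of both parental lines. The tetraspanin CD9 differed by 1.39 and -2.80, the enolase ENO2 by 2.52 and -1.43, CDK6 by 1.29 and -0.82, and ITGA2B, the platelet integrin chain, by 1.30 and -0.43. In the other direction NUPR1, a stress-response gene, differed by -1.13 and 2.60, IL17RC by -1.21 and 1.38, the prostaglandin receptor PTGER4 by -1.24 and 0.89, the sorting receptor SORCS2 by -3.53 and 0.88, SPRED3 by -2.15 and 0.84 and the anti-apoptotic BCL2A1 by -1.24 and 0.77.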

How the results depend on the processing

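The number of sets called between the parental lines lay between 2708 (minimum of 5 TPM) and 4517 (no filter) over the other alternatives, and between 3684 and 3703 with 1 library left out. Asking also for a difference of at least 1 left 1141 of the 1767 lower sets. Replicate numbers did not pair the samples (correlations of same-numbered deviations 0.18, -0.15 and 0.11), and with the replicate block 3739 sets were called, 3154 in the clones beside 3155 without it. Replicate numbers of 1 OCI-AML3 clone could not be settled for sets in a single line, which touches that block and the clone libraries left out. Without any 1 of the 12 clone libraries, 3110 to 3151 sets were called. Of the 468 genes looked at, 35 changed call or direction in at least 1 of 13 alternatives. The direction turned only for genes that did not pass: after rescaling for TAP1 (-0.064), APOE (-0.042), SERPINB1 (-0.10), GP1BB (-0.12), FDPS (-0.076) and PLTP (-0.035), and with 1 library left out for APOE (-0.13 to 0.32), SERPINB1 (-0.024 to 0.10), HIC1 (-0.13 to 0.074), GP1BB (-0.12 to 0.16), DDIT3 (-0.035 to 0.0058), IER3 (-0.10 to 0.064), TNFSF14 (-0.11 to 0.045) and TRIP13 (-0.068 to 0.046). Chosen after seeing the data, leaving out the symbols settled by the size of the parental difference or by position lowered the called list genes from 245 to 196, and list medians changed sign for HOX genes (0.47 to -1.06), stem and progenitor genes (0.21 to -0.75), monocyte genes (-0.13 to 0.22), primary granule genes (-0.20 to 0.23) and lysosome genes (0.06 to -1.25). TPM keep no depth, so counting error of low values is unknown.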

Other observations

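Position in the genome was not used directly in the choice of sets or symbols, although some symbols were settled by the size of the difference. Others, HOXB8 among them, were settled by the order of gene identifiers, which need not be independent of position in the genome. The following was noticed after the values were seen, with no test. Ordering the 2566 tested named genes along the genome by RefSeq (GRCh38.p14), 20 runs of at least 6 consecutive named genes differed by at least 1 in a single direction, 12 higher and 8 lower in OCI-AML3. Genes without a settled symbol can lie between the members of a run. The longest held 18 genes of chromosome 7, from MTERF1 to ZKSCAN1 and including CDK6, SAMD9, PON2, DLX6 and ATP5MF, all higher with differences of 1.13 to 2.97. ATP5MF, a subunit of the mitochondrial ATP synthase, stood at 642, 629 and 657 TPM against 2182, 1869 and 2220 TPM. In the clones 12 of these 18 had the same call and CDK6 the opposite one. A run of 13 genes on chromosome 5, from GAPT to CENPK and including PDE4D, ERCC8, NDUFAF2, KIF2A and DIMT1, was lower with a median of -1.37, and 2 of the 13 had the same call in the clones, where the median difference was -0.24.

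On chromosome 12 the 6 consecutive named genes CLECL1, CD69, KLRF1, CLEC2B, CLEC12A and CLEC9A, C-type lectins of the natural killer gene complex, were lower by 2.91 or more, and all 6 had the same call in the clones. On chromosome 17 a run of 10 genes went from HOXB4 to DLX3 through HOXB13 and IGF2BP1, 9 of them with the same call in the clones. On chromosome 19 a run of 11 higher genes held 9 zinc finger genes, among them ZNF91 (0.27, 0.28 and 0.32 TPM against 14.1, 13.8 and 15.9 TPM), and 7 of the 11 had the same call in the clones. On chromosome 1 all 12 genes from PLEKHN1 to SLC35E2B, ISG15 among them, were higher in both comparisons. Over the 20 runs, 120 of 166 genes had the same call in the clones and 4 the opposite one. Of all tested sets that differed by at least 1, the same call held for 76.3% of the higher and 81.8% of the lower ones. The counts of the runs are therefore a description and do not set the runs apart.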
